A study of Mus musculus with 6 samples.

Results

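Plasmacytoid dendritic cells were followed in RNA from the spleen through 10 of their marker genes: Siglech, Ccr9, Klra17, Ly6d, Spib, Runx2, Bcl11a, Cox6a2, Atp1b1 and Pacsin1. They were picked by gene symbol from the 23420 gene rows of the count files, and all 10 were present and passed the filter on low counts that left 14388 genes to test. Of the 6 libraries, 3 carried the genotype label TBK1-DKO and 3 the label WT (wild type), each made of RNA from fresh dendritic cells of the spleen of C57BL/6 mice. No treatment is given for either group. The age is stated as 8 weeks in one place and 10 weeks in another, and what DKO stands for is not stated. The alleles, any Cre driver, the way the cells were isolated and whether each library came from its own animal are not stated either, so p-values measure the spread between libraries, which may be technical.

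Plasmacytoid dendritic cells are lymphoid-shaped dendritic cells that sense viral nucleic acids in endosomes through Toll-like receptors and secrete type I interferon in large amounts. Their identity rests on the E-protein Tcf4 (also called E2-2), which works with factors such as Spib, Runx2 and Bcl11a and is opposed by Id2. TBK1 is a serine-threonine kinase of innate signalling that phosphorylates interferon regulatory factors. Several of the markers are also used by neighbouring lineages: Spib, Bcl11a and Ly6d belong to the B lineage as well, and Klra17 to some myeloid cells. The RNA was measured in bulk, so fewer plasmacytoid cells and less marker RNA per cell cannot be told apart.

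The regions just before the start sites of 3 markers are shown because Tcf4 and the listed factors Spib and Runx2 belong to families that read short motifs of the kinds marked. The sequences are RefSeq promoter windows of the GRCm38.p6 assembly, cut to the 250 bases before the start site and written 5′ to 3′ on the gene's strand. Siglech lies at chr7:55767934-55768183 on the plus strand, Klra17 at chr6:129876673-129876922 on the minus strand and Ccr9 at chr9:123766961-123767210 on the plus strand. Capitals mark an E-box (CANNTG, the kind of site E-proteins bind), a GAGGAA motif of the ETS kind (TTCCTC on the other strand) or a RUNX core (TGTGGT, or ACCACA on the other strand). Shorter ETS matches, such as GGAA without the letters before it, were not searched for and are not marked.
Siglech: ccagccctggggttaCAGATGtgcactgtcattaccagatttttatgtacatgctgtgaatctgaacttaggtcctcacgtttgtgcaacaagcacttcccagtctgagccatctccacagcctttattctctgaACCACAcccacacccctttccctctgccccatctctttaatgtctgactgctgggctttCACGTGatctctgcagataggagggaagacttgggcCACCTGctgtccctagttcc
Klra17: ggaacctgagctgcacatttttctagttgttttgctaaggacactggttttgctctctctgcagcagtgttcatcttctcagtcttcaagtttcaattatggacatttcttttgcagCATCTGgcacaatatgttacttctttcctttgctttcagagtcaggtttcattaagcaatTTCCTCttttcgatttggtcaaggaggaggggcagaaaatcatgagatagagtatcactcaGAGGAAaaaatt
Ccr9: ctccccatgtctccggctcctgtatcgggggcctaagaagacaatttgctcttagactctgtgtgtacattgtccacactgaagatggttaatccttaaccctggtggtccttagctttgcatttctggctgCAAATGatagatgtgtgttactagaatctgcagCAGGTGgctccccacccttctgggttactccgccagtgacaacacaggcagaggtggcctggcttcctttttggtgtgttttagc
Siglech carried E-boxes 235, 56 and 20 bases before its start and a RUNX core at 115 bases. Klra17 held 1 E-box at 133 bases and GAGGAA motifs at 73 and 12 bases. Ccr9 held E-boxes at 118 and 85 bases and neither a GAGGAA motif nor a RUNX core. The RefSeq start used for it lies inside the longer gene span that GENCODE gives. Windows were found for 8 of the 10 markers, Cox6a2 and Ly6d being without one. An E-box was in 6 of these 8, a GAGGAA motif in 1 and a RUNX core in 3, where 66.2%, 23.3% and 14% of 32851 promoter windows of that length held them. In Runx2 a RUNX core and an E-box share bases. These are matches of letters only; binding was not measured.

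Depth and the makeup of the samples frame every value that follows. The TBK1-DKO libraries held 45018389 to 47349648 reads in genes and the WT libraries 31077585 to 36145508. Each marker had between 326 and 18816 reads in a library. Of all genes tested, 1978 (13.7%) were called higher in TBK1-DKO and 1424 (9.9%) lower at an adjusted p under 0.05 (edgeR quasi-likelihood test, Benjamini-Hochberg adjustment). Libraries TBK1-DKO 2 and WT 1 stood apart from their groups: counts of TBK1-DKO 2 differed from those of TBK1-DKO 1 and 3 with chi-squares of 38.3 per degree of freedom, against 2.47 between those 2. The corresponding values were 13.0 and 14.5 for WT 1 and 2.62 between WT 2 and 3. Without both libraries, the same 9 markers named below were called lower. That fit keeps the 2 most alike libraries of each group and called 23.5% of all genes tested lower. Tbk1, counted over the whole gene, was at 83.9, 79.2 and 83.8 counts per 1000000 reads (CPM) for the TBK1-DKO libraries, against 90.7, 80.8 and 83.7 CPM for the WT libraries (edgeR adjusted p = 0.63). Its level therefore does not check the label TBK1-DKO, and groups are named by their labels throughout.

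Marker RNA of plasmacytoid dendritic cells was lower in the TBK1-DKO libraries. Of the 10 markers, 9 were called lower, 0 higher and 1, Bcl11a, was not called, where 9.9% of all genes tested were called lower. DESeq2 and limma-voom also called 9 lower and 0 higher, and at an unadjusted p under 0.05 edgeR gave 0 higher. For the same 9 markers every TBK1-DKO library was below every WT library, an arrangement found in 19.5% of all genes tested. The median log2 fold change of the 10 was -0.42, against 0.00 over all genes tested. Summed over the 10, marker RNA was 1165 ± 10.4 CPM in TBK1-DKO and 1473 ± 3.81 in WT (SD, n = 3 libraries each). Spib and Ly6d are the largest parts of that sum, so the sum says little about the rarer markers. Without Spib and Ly6d it was 528.7, 495.3 and 540.7 CPM in TBK1-DKO 1, 2 and 3, against 749.6, 698.9 and 692.1 CPM in WT 1, 2 and 3.

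**Figure D1:**
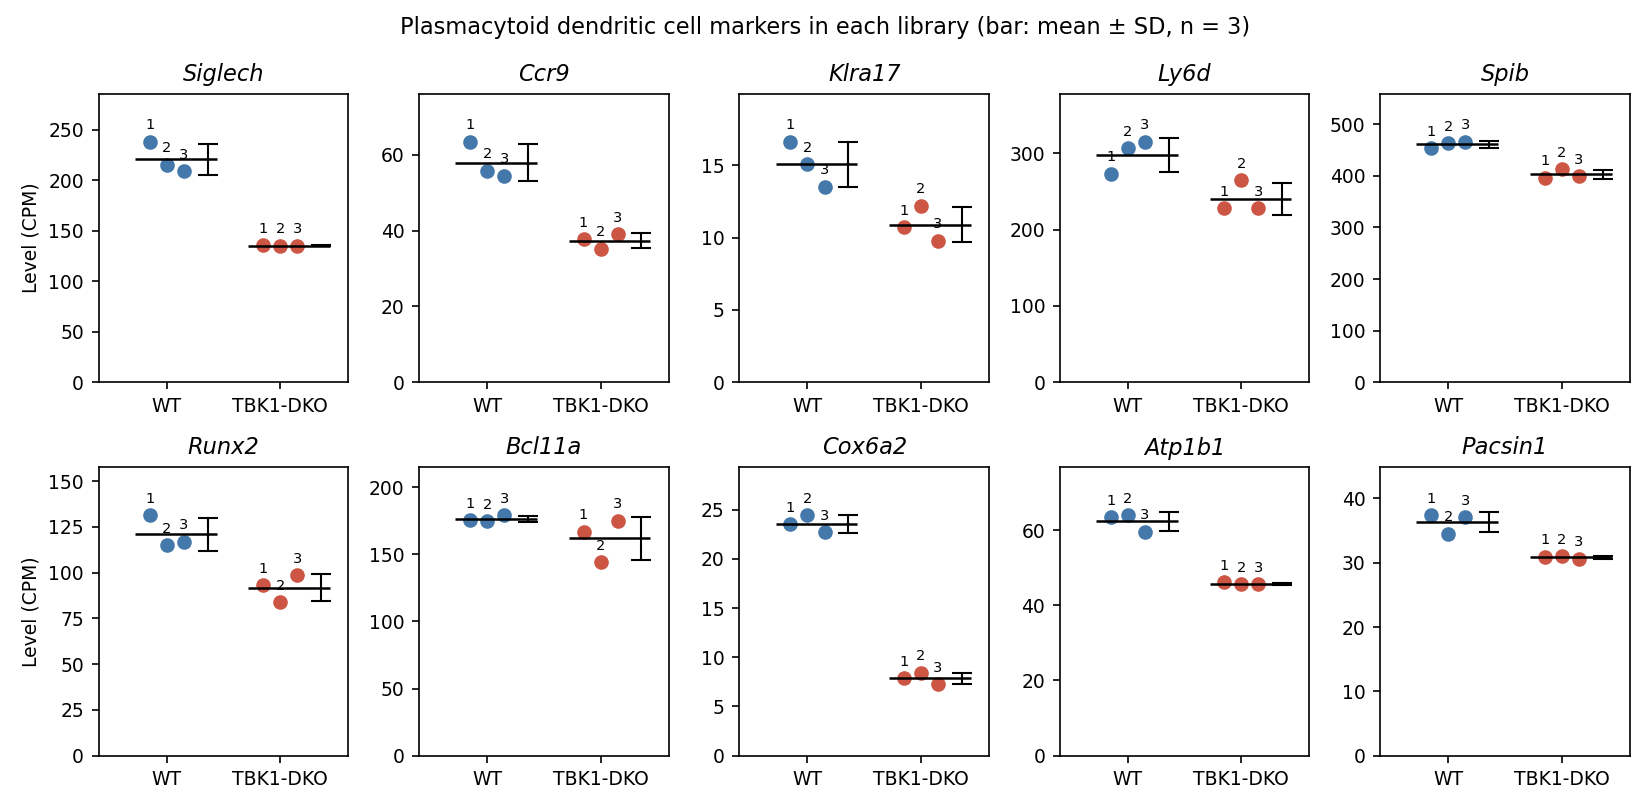
Level of each of the 10 markers in the 6 libraries, in CPM on its own axis, with the group mean and SD beside the points. The 3 TBK1-DKO points lie below the 3 WT points in every panel except that of Bcl11a, where the groups overlap.

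Siglech, on chromosome 7 at 55768178 to 55778925, encodes a sialic acid-binding endocytic receptor and is the marker most closely tied to these cells in the mouse. It measured 135.6, 135.1 and 135.2 CPM in TBK1-DKO 1, 2 and 3, and 238.2, 215.5 and 208.7 CPM in WT 1, 2 and 3. The TBK1-DKO libraries were nearly level with each other and all lay far below the lowest WT library. The log2 fold change was -0.71 (SE 0.06; edgeR adjusted p = 3.27e-05), so that Siglech stood at 61.3% of WT with a 95% interval of 55.7% to 67.5%.

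Ccr9, the receptor for the chemokine CCL25, lies on chromosome 9 at 123678439 to 123784330. It measured 37.8, 35.2 and 39.0 CPM in the TBK1-DKO libraries and 63.5, 55.8 and 54.5 CPM in the WT libraries. The groups were well separated, with a log2 fold change of -0.63 (SE 0.07; edgeR adjusted p = 1.77e-04), or 64.4% of WT. The gene shares 2201 exonic bases with other annotated genes, among them Slc6a20a on the opposite strand. Slc6a20a moved the other way, with a log2 fold change of 0.76 (edgeR adjusted p = 8.41e-04).

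Klra17, also called Ly49Q, encodes an inhibitory receptor for MHC class I and lies on chromosome 6 at 129831154 to 129876672. It measured 10.7, 12.2 and 9.77 CPM in the TBK1-DKO libraries and 16.6, 15.1 and 13.5 CPM in the WT libraries. TBK1-DKO 2 came close to WT 3, but the groups did not overlap. The log2 fold change was -0.47 (SE 0.11; edgeR adjusted p = 0.0097). Reads that align equally well to several Klra genes are left out of gene counts by HTSeq's default, so the level of Klra17 is uncertain.

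Ly6d, a small lipid-anchored surface protein present on B-lineage and plasmacytoid progenitors, lies on chromosome 15 at 74762056 to 74763620. It measured 227.9, 264.5 and 228.3 CPM in the TBK1-DKO libraries and 273.2, 306.7 and 315.5 CPM in the WT libraries. TBK1-DKO 2 came close to WT 1, and the log2 fold change was -0.31 (SE 0.08; edgeR adjusted p = 0.0165). The call was lost without TBK1-DKO 1, TBK1-DKO 3, WT 2 or WT 3, each left out alone, with edgeR adjusted p-values of 0.068 to 0.072. Without TBK1-DKO 2 and WT 1 together the log2 fold change was -0.46.

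Runx2, a Runt-domain factor that plasmacytoid cells need to leave the bone marrow, spans 44495987 to 44814797 on chromosome 17. It measured 93.0, 83.9 and 98.5 CPM in the TBK1-DKO libraries and 131.4, 114.9 and 116.9 CPM in the WT libraries. No TBK1-DKO library reached the lowest WT library, and the log2 fold change was -0.40 (SE 0.08; edgeR adjusted p = 0.0039). Without TBK1-DKO 2 and WT 1 it was -0.29 and Runx2 was still called lower.

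Spib, an ETS factor of plasmacytoid and B cells on chromosome 7 at 44525993 to 44532071, measured 396.5, 413.1 and 399.7 CPM in the TBK1-DKO libraries and 453.8, 463.5 and 466.5 CPM in the WT libraries. The shift was small against its level, with a log2 fold change of -0.19 (SE 0.05; edgeR adjusted p = 0.0273), or 87.4% of WT. The call was lost without TBK1-DKO 1, TBK1-DKO 3, WT 2 or WT 3, each left out alone, with edgeR adjusted p-values of 0.086 to 0.129. Bcl11a, a zinc finger factor of both lineages on chromosome 11 at 24078056 to 24174123, measured 166.8, 143.9 and 174.8 CPM in the TBK1-DKO libraries and 175.4, 174.7 and 179.1 CPM in the WT libraries. TBK1-DKO 3 lay within the WT range, so the groups overlapped. Its log2 fold change was -0.12 with a 95% interval of -0.29 to 0.04 (edgeR adjusted p = 0.26), which includes no change and also a fall to 81.9% of WT.

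Cox6a2 showed the largest fold change among the 10 markers. It encodes the heart and muscle form of a cytochrome c oxidase subunit and is a known marker of plasmacytoid cells, and lies on chromosome 7 at 128205435 to 128206387. It measured 7.85, 8.45 and 7.24 CPM in the TBK1-DKO libraries and 23.5, 24.5 and 22.7 CPM in the WT libraries. All 3 TBK1-DKO libraries were at about the same low level, and Cox6a2 ranked 27 by p among all genes tested. The log2 fold change was -1.59 (SE 0.08; edgeR adjusted p = 1.46e-06), which is 33.3% of WT with a 95% interval of 29.4% to 37.8%. The interval lies wholly below that of Siglech. Cox6a2 shares 70 exonic bases with Itgad on the opposite strand, which was also lower, at 177 to 190 CPM against 298 to 306 CPM in WT.

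Atp1b1, the beta subunit of the sodium-potassium pump, lies on chromosome 1 at 164437109 to 164458355. It measured 46.1, 45.6 and 45.6 CPM in the TBK1-DKO libraries and 63.4, 64.0 and 59.5 CPM in the WT libraries. The gap between the groups was wide against the spread within them, and the log2 fold change was -0.45 (SE 0.06; edgeR adjusted p = 2.68e-04). Pacsin1, a membrane-trafficking adaptor best known from neurons, lies on chromosome 17 at 27655509 to 27711482. It measured 30.9, 31.0 and 30.6 CPM in the TBK1-DKO libraries and 37.4, 34.5 and 37.1 CPM in the WT libraries. The groups did not overlap, with a log2 fold change of -0.24 (SE 0.06; edgeR adjusted p = 0.0179). The call was lost without TBK1-DKO 1, TBK1-DKO 3 or WT 3, each left out alone, with edgeR adjusted p-values of 0.061 to 0.069.

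**Figure D2:**
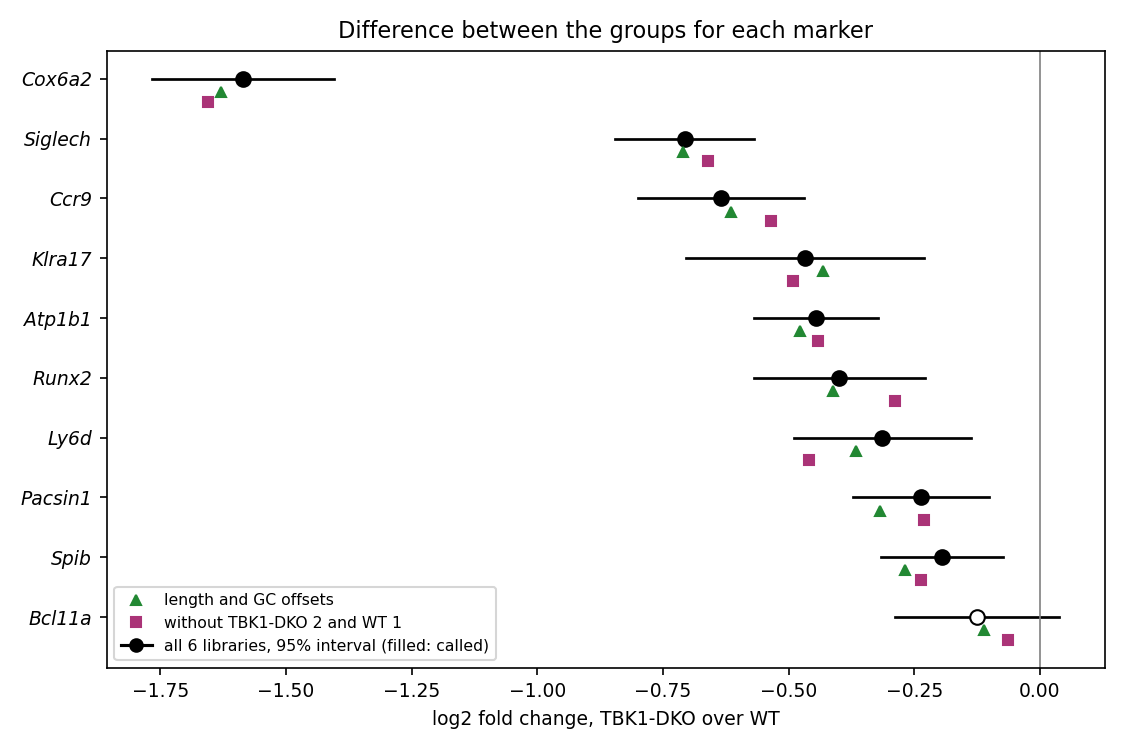
Log2 fold change of TBK1-DKO over WT for each marker with its 95% interval; filled points were called at an adjusted p under 0.05. Cox6a2 lies at -1.59, apart from the others, and the interval of Bcl11a alone crosses 0.

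Levels were compared between markers per kilobase of merged exon and, as an alternative chosen after the data were seen, per kilobase of the longest transcript. Ly6d was highest in WT at 401 ± 30.0 CPM per kb of exon, followed by Spib at 161 ± 2.32 and Siglech at 65.3 ± 4.57. These 3 led in both groups with either length. Cox6a2, at 34.7 ± 1.28 CPM per kb of exon, stood above Atp1b1, at 20.2 ± 0.79, in WT and below it in TBK1-DKO, at 11.5 ± 0.89 against 14.8 ± 0.09, and this exchange was also seen with the longest transcript. The order of the other markers depended on the length used. Bcl11a in WT was at 13.4 ± 0.18 CPM per kb of exon, within the spread of Runx2 (13.7 ± 1.02) and Klra17 (12.6 ± 1.32). Per kb of longest transcript, Bcl11a stood at 29.5 ± 0.40, above Runx2 at 18.7 ± 1.40 and Klra17 at 12.7 ± 1.32. Ccr9 and Pacsin1 did not differ beyond their spread in WT per kb of exon (5.65 ± 0.47 and 5.57 ± 0.24), but Ccr9 was above Pacsin1 per kb of longest transcript (11.2 ± 0.94 and 7.96 ± 0.35).

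The markers did not keep their proportions to Siglech. The ratio of Cox6a2 reads to Siglech reads within a library was 0.0579, 0.0626 and 0.0536 for TBK1-DKO 1, 2 and 3, against 0.0987, 0.114 and 0.109 for WT 1, 2 and 3. For Ccr9 the ratio was 0.279, 0.260 and 0.289 for TBK1-DKO 1, 2 and 3, against 0.267, 0.259 and 0.261 for WT 1, 2 and 3. The Ccr9 ratio overlapped between the groups, while the Cox6a2 ratio was lower in every TBK1-DKO library than in every WT library. For the other 7 markers the ratio was higher in every TBK1-DKO library than in every WT library, by 0.24 (Klra17) to 0.58 (Bcl11a) on the log2 scale. All 9 ratios share Siglech as denominator, and Siglech fell by more than each of these 7. Their higher ratios therefore restate their smaller falls, as would the ratio of any gene that fell clearly less than Siglech. The share of all genes tested with such a ratio was not computed. Spib, for example, had 2.98 ± 0.07 reads per Siglech read in TBK1-DKO and 2.10 ± 0.17 in WT. An exact permutation test of 3 against 3 libraries cannot give a two-sided p below 0.1, so none of these 9 ratios can pass the threshold by itself.

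**Figure D3:**
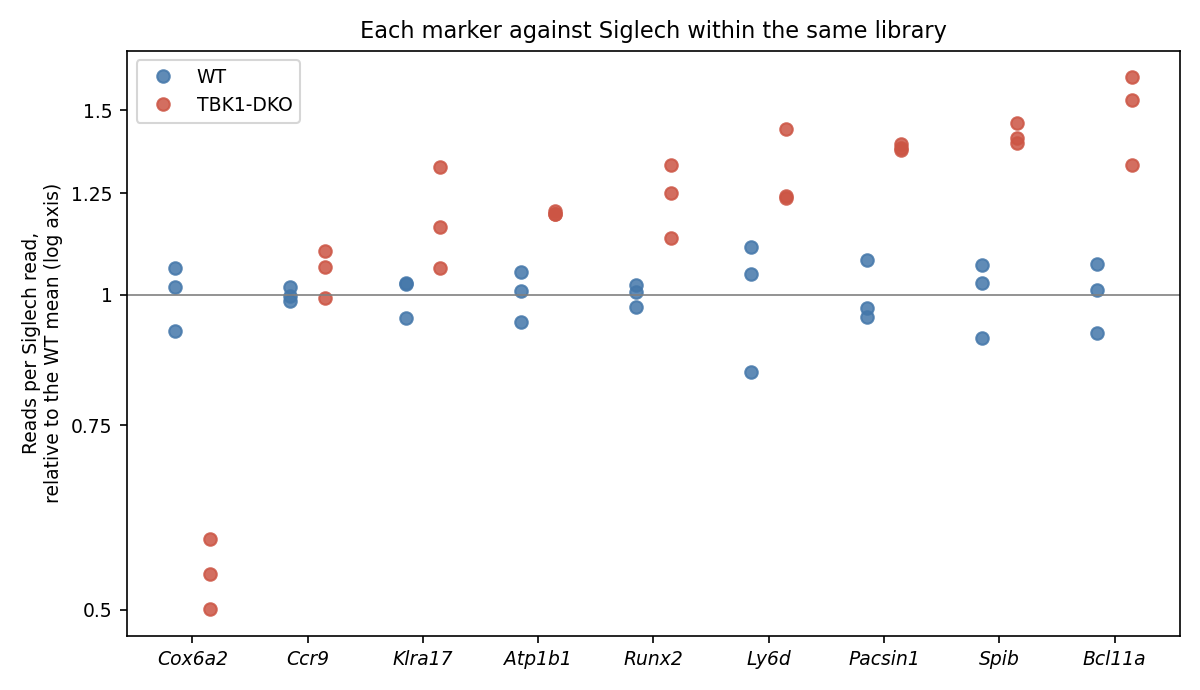
Reads of each of 9 markers per Siglech read in the 6 libraries, relative to the WT mean on a log2 axis. Cox6a2 lies below WT, Ccr9 overlaps it, and the other 7 markers lie above it.

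Within the groups, markers of different transcript length and base composition moved apart in the libraries that stood out. In TBK1-DKO 2, relative to TBK1-DKO 1 and 3, the short markers were higher, with log2 differences of 0.24 for Klra17, 0.21 for Ly6d and 0.16 for Cox6a2. The long ones were lower there, by log2 differences of -0.25 for Bcl11a, -0.19 for Runx2 and -0.12 for Ccr9. Siglech, of middling length, was level at 0.00. Spearman's rho between this difference and the length of the longest transcript was -0.84 over the 10 markers and -0.73 over 10664 genes of at least 5 CPM; genes of a library share its preparation and are not independent. In WT 1, relative to WT 2 and 3, the difference had a rho of -0.61 with GC content over the markers and -0.64 over those genes. Its rho with transcript length was 0.24 over the markers and 0.35 over those genes. Klra17 at 0.21 and Ccr9 at 0.20 were highest and Ly6d at -0.19 lowest. Some markers lay off the GC trend: Pacsin1, with the highest GC content (57.4%), was at 0.06 and Bcl11a (44.8%) at -0.01. With both trends taken out as offsets, 9 markers were still called lower, where 18.6% of all genes tested were lower in that fit. Bcl11a had a log2 fold change of -0.11 there (edgeR adjusted p = 0.054).

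**Figure D4:**
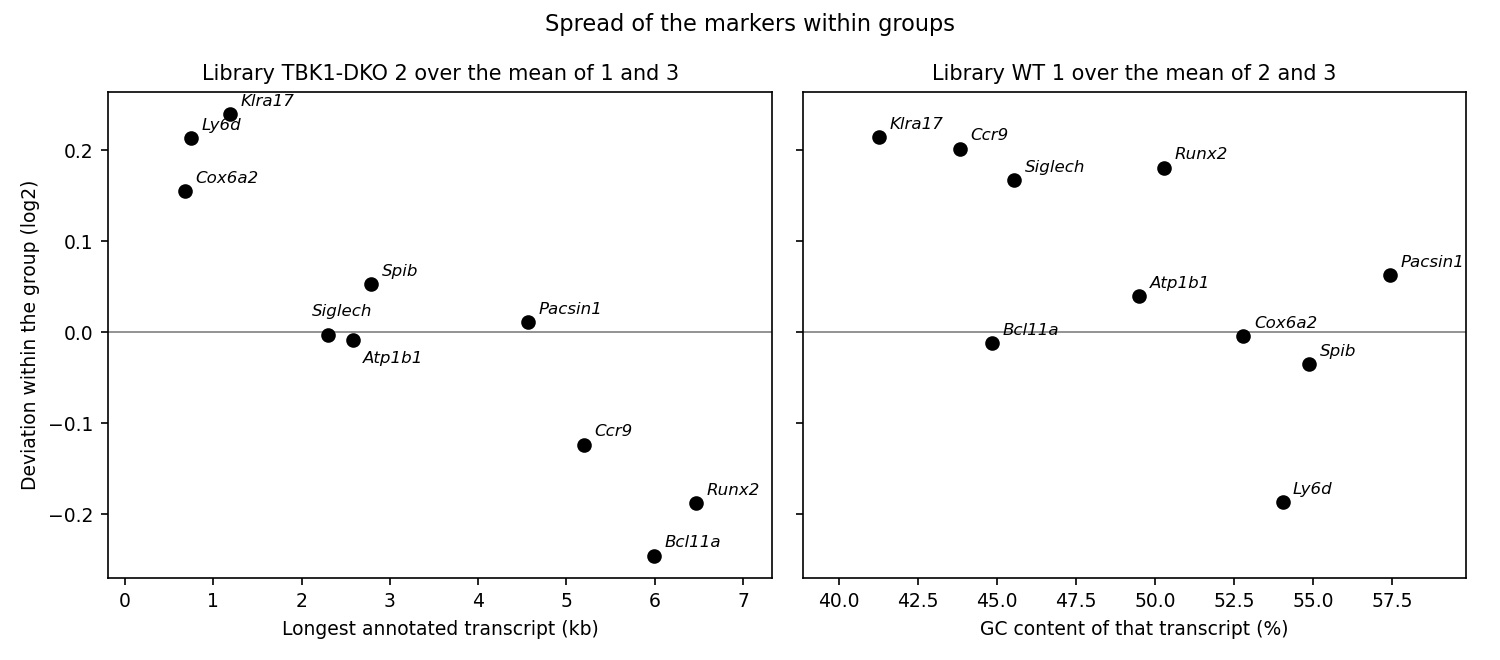
Log2 difference of TBK1-DKO 2 from the mean of TBK1-DKO 1 and 3 against transcript length, and of WT 1 from the mean of WT 2 and 3 against GC content, 1 point per marker. In the first the short markers Klra17, Ly6d and Cox6a2 lie highest and Bcl11a and Runx2 lowest; in the second Klra17 and Ccr9 lie highest and Ly6d lowest.

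Regulators of the plasmacytoid lineage did not share one direction. Of 10 regulators, 2 were higher, 2 lower and 6 not called, where 13.7% of all genes tested were higher and 9.9% lower. Their median log2 fold change was 0.01, against 0.00 over all genes tested. Tcf4 was 165.7, 135.1 and 165.1 CPM in the TBK1-DKO libraries and 198.8, 185.1 and 178.9 CPM in the WT libraries, a log2 fold change of -0.27 (SE 0.08; edgeR adjusted p = 0.040). The groups did not overlap, but the call was lost without WT 1 (edgeR adjusted p = 0.119) or WT 2 (edgeR adjusted p = 0.078). Irf8, a factor of type 1 conventional and plasmacytoid dendritic cells, fell by 0.32 on the log2 scale (SE 0.06; edgeR adjusted p = 0.0051). Irf7, which drives interferon genes in these cells, rose by 0.57 (SE 0.07; edgeR adjusted p = 2.32e-04), from 113 to 123 CPM in WT to 169 to 193 CPM in TBK1-DKO. Cbfa2t3, a corepressor, rose by 0.27 (SE 0.06; edgeR adjusted p = 0.0089). Zeb2 and the Tcf4 antagonist Id2 had log2 fold changes of -0.26 and -0.12 and were not called by edgeR (adjusted p = 0.087 and 0.168). DESeq2 called Zeb2 lower (adjusted p = 0.048), and without TBK1-DKO 2 edgeR called both lower, Zeb2 at -0.16 and Id2 at -0.17 (adjusted p = 0.034 and 0.0105).

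Further genes reported in plasmacytoid cells were mostly lower or not called. Of 19 surface and secretory genes, 11 were lower, 3 higher and 5 not called, where 9.9% of all genes tested were lower and 13.7% higher. Their median log2 fold change was -0.22. The lectin receptor Cd209d fell from 39.4 to 46.7 CPM in WT to 21.1 to 25.3 CPM in TBK1-DKO, a log2 fold change of -0.95 (SE 0.09; edgeR adjusted p = 5.65e-05). Dntt, the template-independent DNA polymerase of lymphoid progenitors, fell by 0.76 on the log2 scale, Klk1 by 0.56, Lair1 by 0.34 and Nucb2 by 0.30. Mzb1, a chaperone of B cells and plasma cells as well, rose by 0.52 on the log2 scale. Of 11 genes of endosomal sensing, edgeR, DESeq2 and limma-voom called 0 in either direction, and at an unadjusted p under 0.05 edgeR gave 2 higher and 0 lower. The DNA sensor Tlr9 had a log2 fold change of 0.25 (edgeR adjusted p = 0.092) with overlapping groups, and without TBK1-DKO 2 it was 0.35 and called higher (edgeR adjusted p = 2.63e-04). Myd88, Unc93b1, Chuk, Irf5 and Slc15a4 lay between -0.16 and 0.15 on the log2 scale.

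Markers of other cells moved too, in both directions, and their part in the marker values was not tested. The counts below stand against 9.9% of all genes tested called lower and 13.7% called higher. B-cell genes, which share Spib, Bcl11a and Ly6d with plasmacytoid cells, were lower in 6 of 12 with 0 higher: their summed level was 3809 to 3922 CPM in TBK1-DKO and 4448 to 4590 CPM in WT, with Fcer2a at a log2 fold change of -0.66. Natural killer cell genes were lower in 8 of 9 tested (230 to 250 CPM against 317 to 356 CPM in WT), with Klre1 at -0.94 and Klrb1c at -0.81 on the log2 scale. Klra4 and Klra8 had 0 reads in all 6 libraries. Type 1 conventional dendritic cell genes were lower in 8 of 11 and higher in 1, with Cadm1 at -0.89 and Itgae at -0.82. Red pulp macrophage genes were lower in 10 of 11 (5420 to 5845 CPM against 7733 to 8381 CPM), with Emr1 at -0.69 and Vcam1 at -0.62. T-cell genes were lower in 5 of 10 (445 to 460 CPM against 505 to 515 CPM), with Cd3d at -0.42 and Cd3e at -0.41. In each of these lists, apart from type 1 dendritic cells, edgeR called 0 genes higher, also at an unadjusted p under 0.05, as did DESeq2 and limma-voom.

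The opposite shift was seen in neutrophil, plasma cell and erythroid genes, all of whose tested members were called higher. Among all genes tested, 13.7% were higher and 9.9% lower, which applies to every list count here. Neutrophil genes, 9 of 9, summed to 5712 to 6597 CPM in TBK1-DKO and 2357 to 2628 CPM in WT, with Mpo and Elane at log2 fold changes of 1.95 and 1.82. Plasma cell genes, 9 of 9, summed to 2217 to 2415 CPM and 1366 to 1509 CPM, with Derl3 at 1.11 and Txndc5 at 0.70. Erythroid genes, 8 of 8, summed to 3161 to 3339 CPM and 1855 to 2093 CPM, with Slc4a1 at 0.88 and Alas2 at 0.75. Pan-dendritic genes gave 2 higher (Kit at 0.37 and Zbtb46 at 0.35), 1 lower and 6 not called, with a median of 0.01, and type 2 conventional genes 3 higher and 2 lower of 10, with Esam at 0.75 and Clec10a at -0.79. The pan-dendritic list summed to 12433 to 14082 CPM in TBK1-DKO and 12726 to 14099 CPM in WT, but 89.0% to 91.4% of its reads were of Cd74, H2-Aa and H2-Ab1, which B cells express too. The summed levels of the other dendritic lists were lower in TBK1-DKO without overlap, at 2716 to 2920 CPM against 2930 to 2993 CPM for type 1 and 1711 to 1739 CPM against 1751 to 1768 CPM for type 2. Few genes carry these sums. In type 1 they are Wdfy4 (mean 1112 CPM in TBK1-DKO and 1137 in WT, not called) and Cd24a (945 and 754 CPM, called higher). In type 2 Sirpa leads (823 and 890 CPM, not called), and the median log2 fold change of that list was 0.03. Among these lists the marker median of -0.42 lay between that of the natural killer list, -0.51, and that of the type 1 dendritic list, -0.32.

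**Figure D5:**
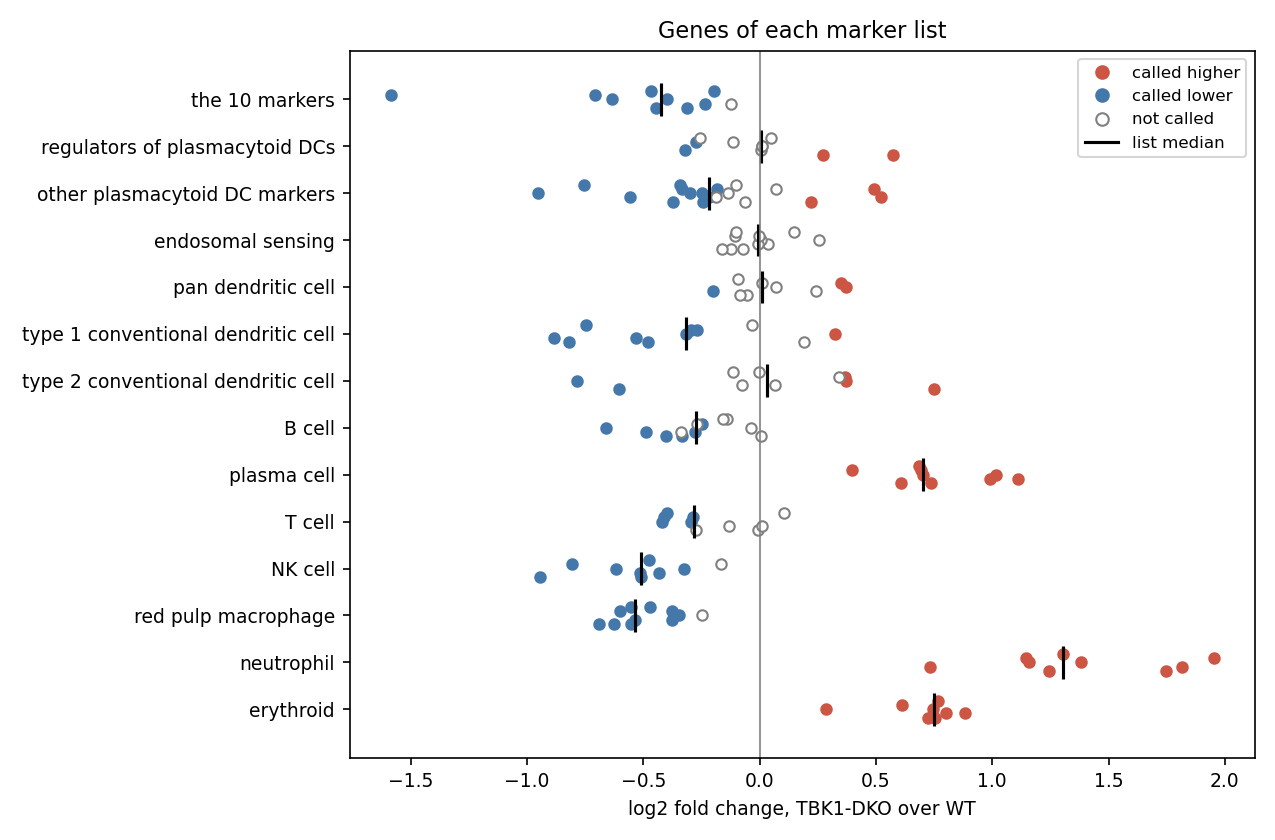
Log2 fold changes of single genes in each list, with the list's median as a bar. The 10 plasmacytoid markers all lie below 0, as do the natural killer and red pulp macrophage genes, while neutrophil, plasma cell and erythroid genes lie above it.

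The genes whose levels followed Siglech most closely over the 6 libraries were Stk17b, Ccr3, Pyhin1, Gm11648 and Zfp868, with Pearson's r of log2 CPM between 0.997 and 0.999. They were taken from genes of at least 5 CPM that are no markers, and since the libraries form 2 groups these values describe mainly a shared difference between groups. Pyhin1 measured 115.9, 117.1 and 118.8 CPM in the TBK1-DKO libraries and 271.0, 234.1 and 232.3 CPM in the WT libraries. Like Siglech, these genes were nearly level among the TBK1-DKO libraries and highest in WT 1, a likeness that follows from picking them by this correlation. Their log2 fold changes were -0.62 (Stk17b), -0.88 (Ccr3), -1.07 (Pyhin1), -0.94 (Gm11648) and -1.37 (Zfp868).

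Genes beside the markers on the chromosome were examined within 500 kb, a window chosen after the values were seen. Of 157 tested neighbours, 37 were lower, 18 higher and 102 not called, where 9.9% of all genes tested were lower and 13.7% higher. The median log2 fold change of the neighbours was -0.02, and 15 of the 37 lower ones lay beside Klra17. Siglech and Bcl11a had no called neighbour among 6 and 5, and Pacsin1 had 0 lower and 1 higher of 15. Klra17 stood in a different setting: 15 of its 23 neighbours were lower and 1 higher, with a median of -0.61. It lies in the natural killer gene complex, and those lower included Klra7 at -1.04, Klrc1 at -0.95 and Klre1 at -0.94, besides the dendritic receptor Clec9a at -0.74. Beside Ccr9, the chemokine receptor genes Ccr3, Cxcr6 and Xcr1 were lower, at -0.88, -0.55 and -0.48. Beside Ly6d, Psca fell from 158, 164 and 179 reads in the WT libraries to 5, 2 and 2 in the TBK1-DKO libraries, and its relative Ly6k fell by 0.86 on the log2 scale. Other Ly6 genes of that window went the other way, Ly6a at 0.58 and Ly6c2 at 0.22, and of 13 neighbours of Ly6d 3 were higher and 3 lower.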

How the data were processed

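Total RNA was extracted with Trizol and sequenced after standard Illumina library preparation, per the labels. The deposited values are whole-number read counts per gene symbol in 6 libraries, with 1 table per library and no scaling, as the files show. The submitters' processing notes name TopHat, TopHat2, HTSeq and DESeq2 with the mm10 build; their versions, the annotation and the strand setting are not stated, so reads of overlapping antisense genes cannot be told apart. Summary rows that name no gene (8.20% to 10.7% of records) were kept out.

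Here, edgeR 4.0.16 in R 4.3.3 was used: filterByExpr with a minimum count of 10, TMM factors (0.996 to 1.012), robust quasi-likelihood F tests of TBK1-DKO against WT over all 6 libraries, and Benjamini-Hochberg adjustment over all 14388 genes tested, with calls at an adjusted p under 0.05. CPM are counts scaled to 1000000 reads with TMM factors. The procedure was tested on simulated data. Positions come from GENCODE M21 (GRCm38, the assembly of mm10). Of the 23420 symbols, 21777 matched it directly, 1260 matched through a RefSeq synonym and 383 did not match. Figures were drawn with matplotlib 3.10.9.

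The members and lists were chosen with earlier results of these data known. The named genes are all 10 markers, Tbk1 and Ikbke (log2 fold change 0.08, not called), up to 6 genes with the smallest p in each list of plasmacytoid biology, up to 2 in each list of other cells, and the 5 genes most like Siglech; further genes named beside them (sharing exons with, or lying next to, a marker) were chosen after their values were seen. Values of some single genes are not reported here. Alternatives were DESeq2 1.42.0, limma-voom (limma 3.58.1), other scaling factors and count filters, a replicate block, non-robust dispersions, removal of haemoglobin and immunoglobulin genes, thinning to WT depth, length and GC offsets, a stricter threshold, and libraries left out.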

Additional observations from a re-analysis of the deposited data

How the results depend on the processing

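The 19 alternatives called between 1996 and 6897 genes, against 3402 in the reported fit. The count was 1996 at an adjusted p under 0.01 and 6897 without TBK1-DKO 2 and WT 1, which leaves the 2 most alike libraries of each group. Leaving out 1 replicate at a time gave 2308 to 4352 genes. Length and GC offsets gave 2422 higher and 2677 lower, so that 47.5% of calls were higher instead of 58.1%. No marker was called higher under any of the 19. The number called lower was 9 under 14 alternatives and 6 or 7 under the other 5, namely 6 at an adjusted p under 0.01 and 6 to 9 when 1 replicate was left out. The share of all genes tested called lower was 5.05% at an adjusted p under 0.01. It was 6.62% to 14.4% when 1 replicate was left out and 8.31% to 23.5% under the remaining alternatives. Siglech, Cox6a2, Ccr9, Klra17, Runx2 and Atp1b1 kept their calls under all 19; Siglech ranged from -0.76 to -0.65 and Cox6a2 from -1.66 to -1.53 on the log2 scale. Bcl11a was called under none (adjusted p 0.054 to 0.357).

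Of 1045 values for 55 single genes, 1000 kept direction and side of the threshold, 21 lost the call and 21 gained one. The sign changed in 3, none of them called: Tbk1 became 0.016 without TBK1-DKO 2 and WT 1 and 0.00016 without WT replicate 1 (with 1 replicate left out it ranged from -0.0996 to 0.00016), and Chuk became 0.021 without TBK1-DKO 2 and WT 1. The cause was not tested.

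Replicate numbers are not said to pair libraries and were not taken to do so. The correlations of deviations between same-numbered libraries were 0.43, 0.38 and -0.20. They cannot decide pairing, since TBK1-DKO 2 and WT 1 stood apart from their groups. TBK1-DKO 1 and 2 correlated best with the WT library of their own number, TBK1-DKO 3 with WT 1. With the number as a replicate block, 4086 genes were called, 9 markers lower and 0 higher, where 12.3% of all genes tested were lower. In that fit Tlr9 (0.24, edgeR adjusted p 0.015) and Zeb2 (-0.26, edgeR adjusted p 0.0053) gained a call. Each marker had at least 326 reads per library. With the TBK1-DKO libraries thinned to WT depth, 9 markers were called lower and 0 higher, where 10.7% of all genes tested were lower.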
